A study of Mus musculus with 8 samples.

Results

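Basal cells of the pubertal mouse mammary gland were compared by how much contractile RNA they held. Myh11 (smooth muscle myosin heavy chain), Mylk (myosin light chain kinase), Cnn1 (calponin) and Tagln (transgelin) were summed as a share of each cell's transcripts, and the lowest tercile of the cells was set against the highest tercile within each library. The cells were thus selected on the summed share of these 4 transcripts. Cells came from micro-dissected ducts and terminal end buds (the tips at which ducts elongate) of mice 5 weeks old, of a strain given as mixed. They were sorted live into wells and sequenced by SORT-seq, an automated CEL-seq2 that counts tagged transcripts near their 3′ ends. No genotype or treatment is given, and neither the tissue of origin (duct or end bud) nor the animal is named for any library. With 2 libraries as the replicates, p-values cover only the variation between them, and this may be technical.

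A well counted as a cell when it reached 1500 transcripts and 500 genes, and as basal when Acta2, Tagln, Myl9, Krt5 and Krt17 together exceeded Krt8, Krt18 and Krt19. This gave 49 basal cells, 31 in plate 2 library 2 and 18 in plate 2 library 4, of 114 cells kept in the 8 libraries and 66 that passed the basal gate. The low, middle and high terciles held 10, 11 and 10 cells in library 2 and 6, 6 and 6 in library 4. Krt18 and Krt19, keratins of luminal cells, were at 0 in the thinned cells of both low terciles, which met the gate, and Krt8 was at 1.25 and 1.20 transcripts per 10000 there.

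The mammary epithelium has an inner luminal layer and an outer basal layer. Most basal cells of a mature duct are myoepithelial: they hold smooth muscle actin and myosin, and contract under oxytocin to eject milk. In the pubertal gland the basal layer also includes the cap cells of the end buds, which proliferate, are less differentiated and line the growing tip.

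The 4 selecting genes ranked the cells, so their values are a description. In library 2 the share ran from 2.615 to 19.04 per 10000 transcripts in the low tercile (median 6.501) and from 104.7 to 135.4 in the high tercile (median 121.6). In library 4 it ran from 5.062 to 31.41 in the low tercile (median 11.67) and from 100.5 to 186.7 in the high tercile (median 128.7). The step at the lower limit was small. The last cell inside the low tercile and the first outside it stood at 19.04 and 19.33 in library 2, and at 31.41 and 32.61 in library 4. At the upper limit the middle tercile ended at 74.77 and the high tercile began at 104.7 in library 2, against 96.53 and 100.5 in library 4. Tagln had the highest summed level of the 4 in both high terciles, at 59.08 and 69.89 per 10000, and 4.112 and 5.049 in the low terciles.

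Depth differed between the terciles in library 2. The low tercile had a median of 20428.5 transcripts a cell and the high tercile 10811, while in library 4 the medians were 13947 and 16720.5. Transcripts per spike-in transcript had medians of 95.87 and 53.73 in library 2, and 65.37 and 55.7 in library 4, low before high. For every gene comparison the 4 selecting genes were removed and each cell was thinned at random to 5000 transcripts. This left 8 low and 8 high cells in library 2, and 5 low and 4 high cells in library 4. At this equal depth the low and high terciles held a median of 2422.5 and 2434 genes in library 2, and 2447 and 2316 in library 4.

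The terciles also differed by well number, and the labels do not say what well numbers stand for. The low tercile had 8 of 10 cells in wells 1 to 24 in library 2 and 4 of 6 in library 4, and the high tercile had 0 of 10 and 0 of 6. The 13 basal cells in wells 1 to 24 of library 2 had a median share of 8.403 per 10000, and the 18 in wells 25 to 96 had 104.8. In library 4, 5 cells had a median of 7.275 and 13 cells 96.53. Well number and contractile share therefore largely moved together, and each comparison of the whole terciles below is also one of well groups. Only 7 well numbers held a basal cell in both libraries, and their profiles had a median correlation of 0.5917, against 0.6446 over 551 pairs with different numbers.

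**Figure D1:**
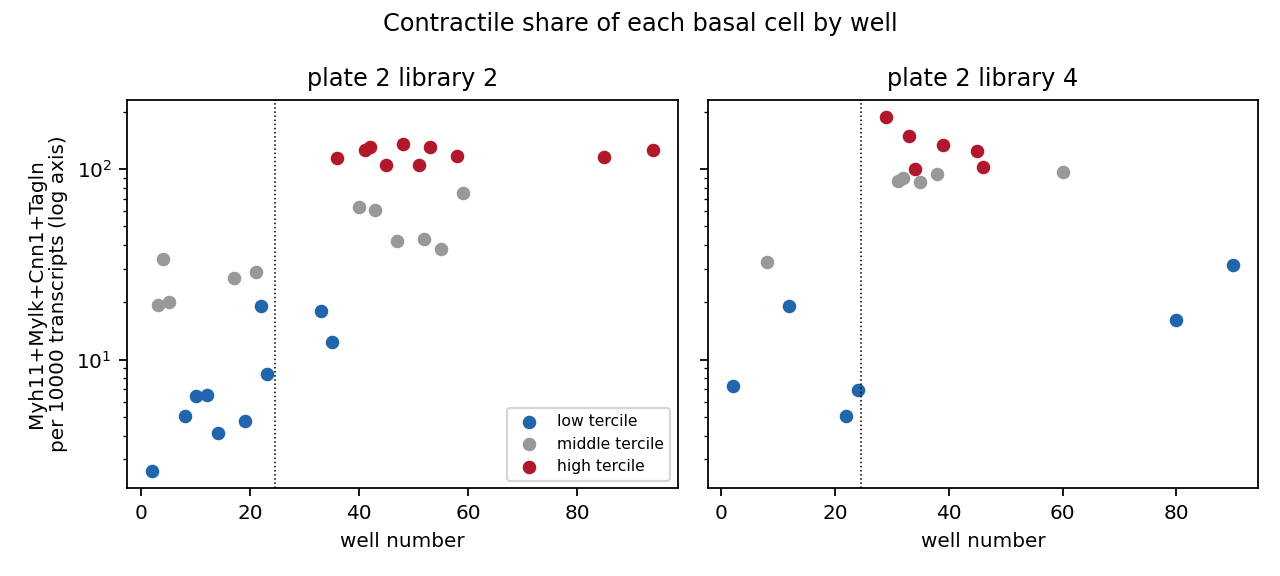
Share of Myh11, Mylk, Cnn1 and Tagln per 10000 transcripts (log axis) against well number for each basal cell of plate 2 libraries 2 and 4, with 1 point a cell coloured by tercile and a dotted line between wells 24 and 25. No cell of a high tercile lies left of the line, while 8 of 10 and 4 of 6 cells of the low terciles do.

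Low-contractile cells held more Mest, Fabp5, Ptn, Csn3 and Ccnd1 transcripts and less Krt14, Oxtr, Igfbp5 and Postn. Of 616 genes tested, 60 (9.74%) passed a Benjamini-Hochberg adjusted p of 0.05 in edgeR's quasi-likelihood test on sums per library and tercile, with library as a block. There were 22 (3.57%) higher and 38 (6.17%) lower in the low tercile, and 165 had an unadjusted p under 0.05. Acta2 and Myl9, 2 of the 38, also served in the basal gate, and their values are given as a description. The change had the same sign in both libraries for all 60 genes. The middle tercile lay between the low and the high tercile in both libraries for 38 of the 60, and in 55 for library 2 and 43 for library 4. When cells were split into a lower and an upper contractile set inside wells 1 to 24 and inside wells 25 to 96, and these were summed, 0 of 875 genes passed in edgeR's test and 64 had an unadjusted p under 0.05. Of the 55 called genes that this split could test, 48 kept their sign. The contractile contrast was smaller there than between terciles: the lower and upper sets had median shares of 4.919 and 23.42 per 10000 in wells 1 to 24 and 42.91 and 125.4 in wells 25 to 96 of library 2, and of 6.014 and 25.82, and 86.09 and 128.7, in library 4.

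Other fits called other numbers of genes. Without thinning, 349 of 3165 genes (11%) passed in edgeR, 122 (3.85%) higher and 227 (7.17%) lower in the low tercile. Those sums weight deep cells more. They held 191987 transcripts in low and 141948 in high cells of library 2, and 136533 and 86045 in library 4. Counted with the selecting genes, 2 of the 6 low cells of library 4 held 52233 and 45441 transcripts. DESeq2 on the thinned sums called 16 of 484 genes (3.31%; 0.826% higher and 2.48% lower in the low tercile), and gave no adjusted p for Fabp5, Ptn and Ccnd1, among others.

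**Figure D2:**
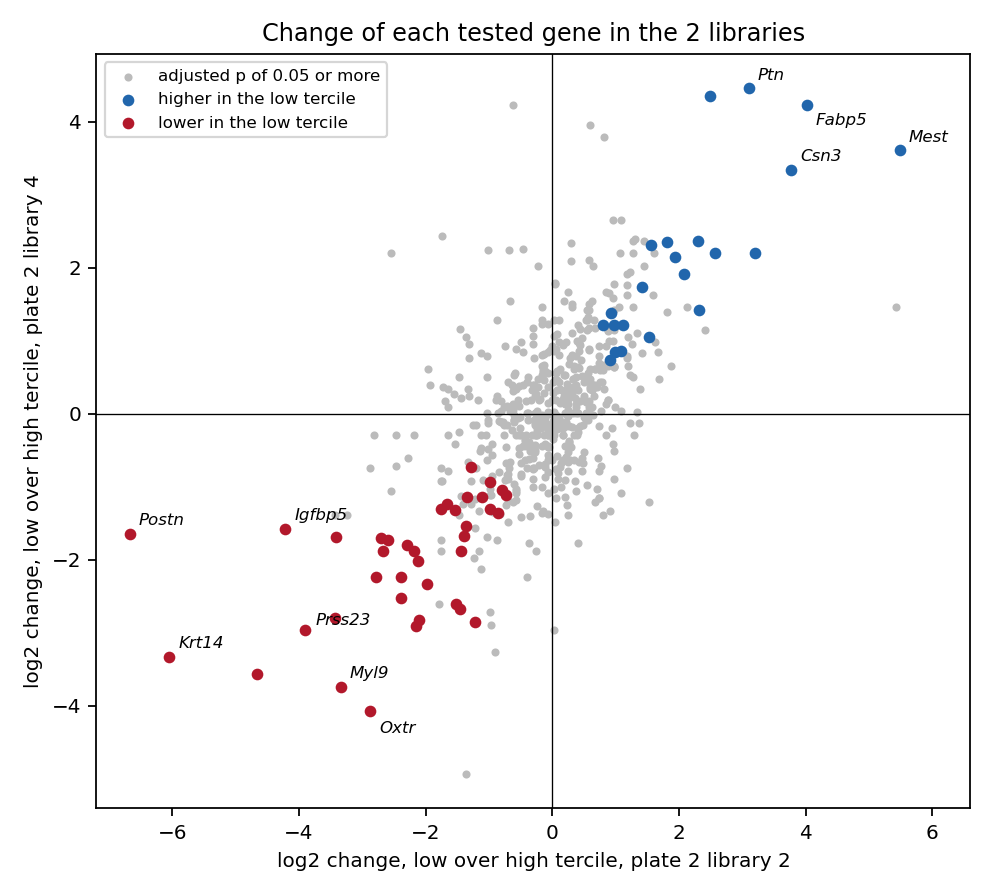
Log2 change of 616 tested genes, low over high contractile tercile, in plate 2 library 2 (x axis) and library 4 (y axis), each computed after adding 0.5 transcripts, with the 22 genes higher in blue and the 38 lower in red, including the gate genes Acta2 and Myl9. Every coloured point has the same sign in both libraries, with Mest and Fabp5 at the upper right and Krt14 and Oxtr at the lower left.

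Of the contractile genes that were neither selecting nor gate genes, 7 of 15 tested were lower in the low tercile and 0 higher, with a median of -1.02 on the log2 scale against -0.02 over all tested genes. With the gate genes Acta2 and Myl9, 17 of the 32 listed were tested, all had a negative change, and the median was -1.13. Cald1, the thin-filament protein caldesmon, ran from 0 to 5 and from 1 to 3 transcripts of 5000 in low cells, and from 4 to 10 and from 5 to 9 in high cells of libraries 2 and 4. Low and high cells thus overlapped only between 4 and 5 transcripts in library 2 and not at all in library 4. Its change was -2.12 ± 0.28 (log2, SE, n = 2 library pairs; edgeR adjusted p = 0.0117), and -0.53 inside the well groups (edgeR adjusted p = 0.627). Tpm2 (tropomyosin) changed by -2.29, Vcl (vinculin, of the actin-to-membrane link) by -1.66, Csrp1 by -1.47, Tpm1 by -1.13 and Myl6 (a myosin light chain) by -0.90. Among those that did not pass in edgeR were Flna, the actin crosslinker filamin, at -0.99 ± 0.30 (adjusted p = 0.0914) and Calm2 (calmodulin) at -0.73 ± 0.37 (adjusted p = 0.259).

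The 2 contractile gate genes had the same direction. Acta2, smooth muscle actin, was at 49.5 and 44.8 per 10000 in the low terciles of libraries 2 and 4. The high terciles were at 150 and 108. Each of the 13 low wells thinned had Acta2 transcripts. Wells of the same libraries with under 500 transcripts were at 163.9 and 179.4 per 10000, above both terciles. The part of this background in the low wells was not tested. Acta2 had 18 to 45 transcripts of 5000 in low cells of library 2 and 50 to 95 in high cells, without overlap. Myl9, the regulatory myosin light chain, was at 1.75 and 0.80 per 10000 against 18 and 13.5. Inside the well groups, 19 of 20 tested members of the contractile list were lower in the lower contractile set, and 0 passed in edgeR's test. Their median was -0.52, against 0.02 over all 875 genes tested there. The 20 include the gate genes Acta2 at -0.30 and Myl9 at -0.50.

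Oxtr, the oxytocin receptor through which myoepithelial contraction is triggered, was low in the same cells. Low cells had 0 to 3 transcripts of 5000 in library 2 and 0 or 1 in library 4, with a median of 0 in both. High cells had 0 to 11 (median 3) and 3 to 8 (median 4.5), and overlapped with low cells in library 2 alone. The change was -3.45 ± 0.54 (log2, SE, n = 2 pairs; edgeR adjusted p = 0.0158), and inside the well groups it was -0.48 (adjusted p = 0.795). The other tested members of that list of 19 were Rhoa, a GTPase that promotes contraction, at 0.67 ± 0.50, and Srf, the transcription factor of smooth muscle genes, at -0.02 ± 0.51. Neither passed in edgeR (adjusted p = 0.462 and 0.990).

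Srf binds the CArG box, a short motif with an A- and T-rich centre that has the same pattern on both strands. Because several contractile genes moved together, the box was looked for in the 250 bases before each RefSeq gene start (build GRCm38.p6). It was found in 439 of 27025 promoters (1.624%) and in 13 of 463 tested genes with a promoter in the table (2.808%). Among genes lower in the low tercile it was found in 3 of 30, and among genes higher in 0 of 15. Those 3 were the contractile genes Myl6, Myl9 and Vcl, of which Myl9 also served in the basal gate. The cells were ranked on contractile genes, so these counts are a description, and a role of Srf was not tested. The stretch around each box is printed 5′ to 3′ on the gene's strand with the box in capitals, at chr10:128493010-128493104 (minus strand), chr2:156775258-156775357 (plus strand) and chr14:20929148-20929225 (plus strand) in that order. The box began 50, 161 and 227 bases before the start of the transcript.
Myl6: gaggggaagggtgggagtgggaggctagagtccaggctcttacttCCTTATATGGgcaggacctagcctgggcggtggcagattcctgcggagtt
Myl9: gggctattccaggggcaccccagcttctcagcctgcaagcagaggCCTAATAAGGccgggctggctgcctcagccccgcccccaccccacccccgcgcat
Vcl: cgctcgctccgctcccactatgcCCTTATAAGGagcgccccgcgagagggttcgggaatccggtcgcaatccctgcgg
All 3 boxes begin with CC and end with GG, as the motif requires, so they could differ only within their A- and T-rich centre. A match describes these letters and is not a measured binding site.

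Krt14, a basal keratin filament protein, had the largest fall of the genes past the threshold. Krt14 (chr11:100203162-100207548 in mm10) had 0 transcripts of 5000 in all 8 low cells of library 2 and 0 to 2 in the 5 low cells of library 4. In high cells it had 0 to 8 (median 4) and 0 to 9 (median 5.5). Groups met only at low values, with 1 low cell and 10 high cells holding any. The change was -4.66 ± 0.73 (log2, SE, n = 2 pairs; edgeR adjusted p = 0.0158), from 2 against 51 transcripts, a high to low ratio of 27.62 (95% interval 7.266 to 234.3). Inside the well groups it was -1.36 (edgeR adjusted p = 0.627). The middle tercile differed between libraries: all 9 cells of library 2 were at 0, while the 6 cells of library 4 had 0 to 7 (median 3). Krt5, a gate gene, was at 4.5 and 3.6 per 10000 in the low terciles and 7.75 and 6.5 in the high terciles, and Krt17 at 2.75 and 4 against 2.5 and 7. Of the other members of the basal keratin and hemidesmosome list, Dst (dystonin, which ties keratin to hemidesmosomes) fell by 1.45 ± 0.26 (adjusted p = 0.0196 in edgeR and 0.118 in DESeq2). Apart from the gate genes, 2 of 9 were lower and 0 higher. Itgb1 and Itga6, integrin subunits of the basal surface, were at -0.41 and -0.93 and did not pass. Without thinning 7 of 18 genes of this list were lower and 0 higher, counting the gate genes Krt5 and Krt17. Krt5, the usual partner of Krt14, was at -1.40 ± 0.31 and Krt17 at -1.28 ± 0.31, both given as a description. Krt15 was at -3.13 ± 0.58 and Itga6 at -1.01 ± 0.28, with adjusted p of 0.00681 and 0.0417 in edgeR.

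Matrix genes split. Of 13 basement membrane and matrix genes tested, 4 were lower and 0 higher, with a median of -0.70. Sparc, a collagen-binding matrix protein, had 2 to 18 (median 7) and 4 to 20 (median 11) transcripts of 5000 in low cells and 12 to 29 (median 19.5) and 14 to 34 (median 24) in high cells, with overlap in both libraries. It changed by -1.26 ± 0.19 (log2, SE, n = 2 pairs; edgeR adjusted p = 0.0152). Col4a1 and Col4a2, which encode the 2 chains of the main type IV collagen, changed by -0.90 ± 0.19 and -0.97 ± 0.21, and Lamc1 (laminin gamma) by -1.89 ± 0.43, with adjusted p of 0.0307, 0.0328 and 0.0346 in edgeR. DESeq2 did not call these 3, with adjusted p of 0.230, 0.337 and 0.118. Inside the well groups Col4a1 was at -0.14 and Col4a2 at 0.06, the latter with the opposite sign. Col4a1 and Col4a2 are neighbours on opposite strands whose annotated starts overlap (chr8:11198423-11312826 and chr8:11312805-11449287), and whether the authors counted by strand is not given in the sources used here. Serpinh1 (a collagen chaperone) and Lama1 (laminin alpha) were at 0.26 and -0.10, and Adamts1 (a matrix protease), Fbln2 (fibulin) and Vcan (versican) at 1.98, 1.5 and 1.20, none of which passed.

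Postn, Eln, Prss23 and Fstl1, which encode secreted proteins and are in no list used here, were among the 12 largest falls. They are single genes: Col16a1 and Col14a1 (collagens) and Mgp (matrix Gla protein) were at -0.79, 0.50 and -1.32 and did not pass. Postn (periostin) was at 0 in all 8 low cells of library 2 against 2 to 20 in the 8 high cells, without overlap. In library 4 it had 0 to 2 in low cells, 1 to 5 in high cells and 2 to 13 in middle cells, so the middle tercile there was the highest. Its log2 change was -6.67 in library 2 and -1.65 in library 4, and -3.83 ± 0.87 together (edgeR adjusted p = 0.0355). DESeq2 gave Postn -4.71 with an adjusted p of 0.463, and inside the well groups it was at -1.03 (edgeR adjusted p = 0.719). Eln (elastin) changed by -3.50 ± 0.59 from 2 against 23 transcripts, Prss23 (a secreted serine protease) by -3.86 ± 0.66 from 2 against 30, and Fstl1 (a follistatin-like glycoprotein) by -2.55 ± 0.46, with an adjusted p of 0.0781 in DESeq2. Since fibroblasts also make such proteins, the fibroblast marker list was read in the same cells. Of the 9 of its 10 genes in the table, 6 were detected in low and 4 in high cells, with a summed level of 0 to 5.355 per 10000 (median 1.19) in low and 0 to 7.946 (median 2.965) in high cells. Fbn1 gave 23 of 36 of these transcripts in low cells and 52 of 74 in high cells, and Dpt, Mfap5 and Pi16 were at 0 in both. Dcn, also of that list, had 0 and 1 transcripts in the low terciles and 11 and 7 in the high terciles before thinning, in 8 high cells with at most 5 in a cell. The part of fibroblast RNA in these falls was not tested.

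Insulin-like growth factor binding proteins, which bind IGF outside the cell, included some of the largest falls. Igfbp5 (chr1:72857932-72874884) had 0 to 3 transcripts of 5000 (median 0.5) in low cells of library 2 and 6 to 40 (median 13) in high cells, without overlap. In library 4 low cells had 0 to 30 (median 1) and high cells 14 to 29 (median 20.5), since 1 low cell held 30. The change was -2.59 ± 0.47 (log2, SE, n = 2 pairs; edgeR adjusted p = 0.0197), with -4.22 in library 2 and -1.58 in library 4. Inside the well groups it had the opposite sign, at 0.20 (adjusted p = 0.868). Igfbp3 changed by -2.69 ± 0.54 (adjusted p = 0.0251 in edgeR and 0.0694 in DESeq2), and was at -0.94 inside the well groups (edgeR adjusted p = 0.627). Igfbp2 and Igfbp4 were at -0.79 ± 0.40 and 0.27 ± 0.41 and did not pass. Together with Fgfr1 at -0.72 and Pappa, a protease of IGF binding proteins, at 1.05, 2 of 6 tested genes of the EGF receptor, FGF and IGF list were lower. Without thinning Igfbp2 and Igfbp7 were lower as well as Igfbp3 and Igfbp5, at -1.29 ± 0.35 and -4.34 ± 0.83 (edgeR adjusted p = 0.0377 and 0.00789), Igfbp7 from 0 and 3 transcripts in low and 38 and 10 in high cells of libraries 2 and 4.

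In the cytokine list 1 of 3 tested genes was lower, in the YAP and MRTF responsive list 1 of 2, and in the immediate early list 3 of 15, with 0 higher in each. Without thinning these were 2 of 5, 5 of 10 and 11 of 18, again with 0 higher. Il17b, a cytokine of the interleukin 17 family, had 0 to 3 and 0 or 1 transcripts of 5000 in low cells and 2 to 8 and 2 to 5 in high cells of libraries 2 and 4, with overlap in library 2 alone. Its change was -2.42 ± 0.43 (adjusted p = 0.0196 in edgeR and 0.0781 in DESeq2), but 0.04 inside the well groups. Cxcl14, a chemokine of basal cells, stood at 11.25 and 11.2 per 10000 in low and 11.25 and 13.5 in high terciles (-0.14 ± 0.22, adjusted p = 0.756). Cyr61, a matrix-associated protein induced by YAP and by Srf cofactors, fell by 1.95 ± 0.30 (adjusted p = 0.0158 in edgeR) and was at 0.30 inside the well groups. Of 15 immediate early genes, which dissociation can also induce, Fosb (-2.27 ± 0.43), Klf4 (-1.55 ± 0.33) and Egr1 (-1.03 ± 0.21) were lower, with adjusted p of 0.0206, 0.0307 and 0.0260 in edgeR and 0.0495, 0.152 and 0.127 in DESeq2. Fos was at -0.81 ± 0.21 (edgeR adjusted p = 0.0507), and at -1.25 ± 0.24 without thinning (edgeR adjusted p = 0.00761). Inside the well groups 8 of 17 tested genes of this list were lower and 9 higher, with a median of 0.01.

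The genes higher in low-contractile cells were led by Mest, an imprinted gene of the alpha/beta hydrolase fold family that is active in embryonic and growing tissue. Mest (chr6:30723547-30748465) had 0 to 7 transcripts of 5000 (median 2.5) in low cells of library 2 and 1 to 8 (median 6) in library 4. High cells had 0 in all 8 of library 2 and 0 or 1 in the 4 of library 4, so groups touched only at 0 and 1. The change was 5.01 ± 0.81 (log2, SE, n = 2 pairs; edgeR adjusted p = 0.0170), from 45 against 1 transcripts, a ratio of 41.54 (95% interval 7.085 to 1676.7). The middle tercile was at 2.667 per 10000 in library 2 and 0.3333 in library 4. Fabp5, a fatty acid carrier, was found in 11 of 13 low cells and 1 of 12 high cells, with 36 against 1 transcripts and a ratio of 33.23 (95% interval 5.596 to 1348.5). Its change was 4.76 ± 0.80 (edgeR adjusted p = 0.0173). Ptn (pleiotrophin, a secreted growth factor) had 26 against 1 transcripts and changed by 4.25 ± 0.78 (adjusted p = 0.0197). Inside the well groups Mest was at 1.76 (adjusted p = 0.627) and Ptn at 0.37 (adjusted p = 0.901).

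Crispld2, a secreted lipopolysaccharide-binding protein, had the most transcripts of the 12 largest rises. Low cells had 10 to 39 (median 18.5) and 4 to 33 (median 16), and high cells 1 to 11 (median 5) and 0 to 6 (median 4.5) in libraries 2 and 4. The 2 groups overlapped narrowly in both libraries. The change was 2.03 ± 0.21 (log2, SE, n = 2 pairs; edgeR adjusted p = 0.00488), and 0.81 inside the well groups (adjusted p = 0.627). In wells of the same libraries with under 500 transcripts Crispld2 was at 23.24 and 14.83 per 10000. That lies between its low terciles (42.5 and 33.6) and its high terciles (10.5 and 7.5). Those wells held Sparc at 26.91 and 19.28, Cald1 at 7.339 and 6.673 and Igfbp5 at 11.01 and 20.02. The part of this background in the terciles was not tested.

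The other named rises were single genes that are in no list used here. Ccnd1 (cyclin D1, which carries cells out of G1) had 0 to 9 (median 3.5) and 0 to 5 (median 1) transcripts of 5000 in low cells, and 0 to 2 (median 0.5) and 0 or 1 (median 0) in high cells, with overlap in both libraries. It changed by 2.48 ± 0.57 (edgeR adjusted p = 0.0363), but was at -0.25 inside the well groups. Odc1 (ornithine decarboxylase, the first step of polyamine synthesis) changed by 3.01 ± 0.65 (adjusted p = 0.0317 in edgeR and 0.0781 in DESeq2) and Calr (calreticulin, an endoplasmic reticulum chaperone) by 2.05 ± 0.33 (adjusted p = 0.0170 in edgeR). Csrp2, a LIM-domain protein, changed by 3.15 ± 0.60 from 22 against 2 transcripts and Bzw2, a regulator of translation initiation, by 2.70 ± 0.56 from 23 against 3. Prpf8, a core splicing factor, was at 2.16 ± 0.55 (edgeR adjusted p = 0.0498) and at 0.66 when each library was split at its middle share instead of into terciles. H2afz (a histone variant) was at 2.00 ± 0.38, with an adjusted p of 0.0807 in DESeq2. H2afz and the passing genes Ppia, Npm1, Cfl1 and Hmgn2 have many processed pseudogenes, so reads may be shared and their values are uncertain.

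Csn3 encodes kappa-casein, a milk protein otherwise made by luminal cells. It had 0 to 10 transcripts of 5000 (median 1) and 0 to 19 (median 8) in low cells of libraries 2 and 4, and 0 or 1 and 0 to 2 in high cells, with overlap in both. It changed by 3.71 ± 0.52 (log2, SE, n = 2 pairs; edgeR adjusted p = 0.0117), and was not tested inside the well groups because too few transcripts were left. Low terciles stood at 5.25 and 17.2 per 10000 and high terciles at 0.25 and 1.5. Wells of the same libraries with under 500 transcripts were at 12.23 and 8.897 per 10000 (10 of 8175 and 12 of 13488 transcripts), so the library 2 value lies below this background and the library 4 value above it. The 42 kept cells of the series in which Krt8, Krt18 and Krt19 exceeded the basal gate genes held 33.14 per 10000. Before thinning, 1 low cell held 228 of the 339 Csn3 transcripts of the low tercile of library 4. The other genes of the luminal list went different ways: Mfge8 fell by 1.85 ± 0.46 (adjusted p = 0.0481 in edgeR and 0.101 in DESeq2), and Lcn2 and Gata3 were at -0.67 and 0.30 and did not pass. Without thinning Epcam, an adhesion molecule with more RNA in luminal than basal cells, was higher at 2.13 ± 0.51 (edgeR adjusted p = 0.0234), from 29 against 4 transcripts in library 2 and 26 against 4 in library 4, and in all 2 of 6 tested luminal genes were higher and 1 lower. Mest and Krt14 had 0 transcripts in those 42 cells, while Igfbp5 was at 29.64, Ptn at 7.391 and Ccnd1 at 5.815 per 10000.

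**Figure D3:**
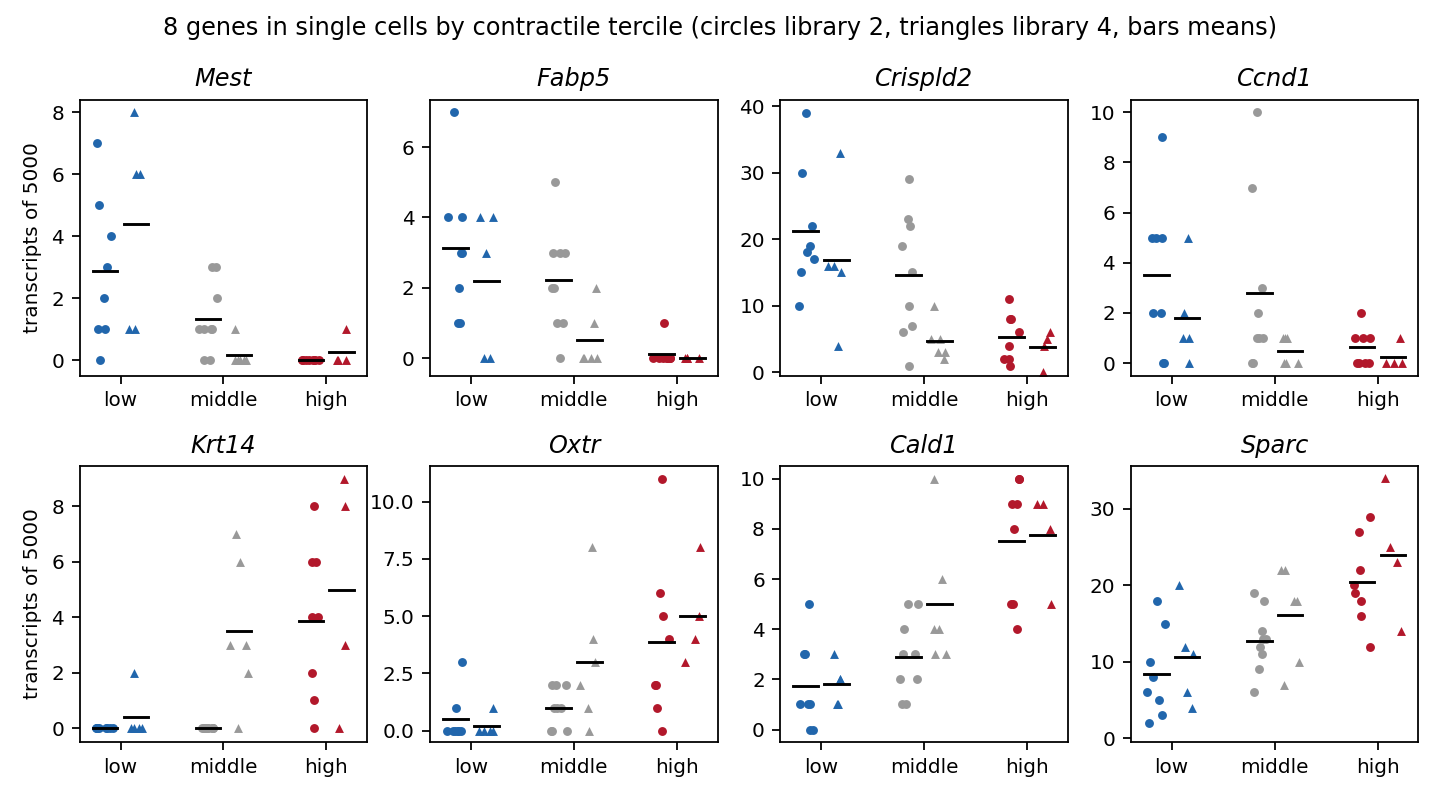
Transcripts of 5000 in each thinned cell for Mest, Fabp5, Crispld2, Ccnd1, Krt14, Oxtr, Cald1 and Sparc by contractile tercile, with circles for plate 2 library 2, triangles for library 4 and bars at the mean of each library. Mest and Fabp5 are at 0 or 1 in all high cells, Krt14 is at 0 in all low and middle cells of library 2, and the middle tercile of library 4 lies nearer to the high tercile for Krt14.

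At 5000 transcripts a cell the housekeeping lists had no member past the threshold. Ribosomal protein genes had 0 of 75, with a median of 0.13, oxidative phosphorylation genes 0 of 15 with a median of 0.46, and antioxidant and metal genes 0 of 5 with a median of 0.57. Of the oxidative phosphorylation genes, 13 of 15 were above 0, among them the ATP synthase genes Atp5b at 0.90 ± 0.30 (edgeR adjusted p = 0.111) and Atp5g3 at 0.75 ± 0.30. Heat shock genes (0 of 6) had a median of -0.02, with the chaperone gene Hsp90ab1 at 0.71 ± 0.19 (edgeR adjusted p = 0.0544). Glycolysis genes (0 of 5) had a median of 0.62, and MHC and interferon genes (0 of 4) of -1.34, with H2-T23 at -1.91 ± 0.52 (adjusted p = 0.0574 in edgeR). Stem or progenitor genes had 0 of 4, with Sox10 at -0.09 and Cd24a at -0.18. The 1 gene tested for Wnt and Notch was Ctnnb1 (beta-catenin) at -0.26, for TGF-beta and BMP Tgfbr3 at -1.16, and for the mesenchymal list Vim (vimentin) at -1.05, and none passed.

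Without thinning some members of these lists passed. Of all 3165 genes tested 3.85% were higher and 7.17% lower, and counts of 1 or 2 in a list are to be read against these shares. Of 72 oxidative phosphorylation genes 8 were higher and 0 lower, with a median of 0.66 against -0.01 over all genes. They included Ndufb8 (a complex I subunit) at 1.92 ± 0.40, Atp5g1 at 1.81 ± 0.40 and Atp5b at 0.83 ± 0.24, with adjusted p of 0.0125, 0.0158 and 0.0474 in edgeR. Of 11 antioxidant and metal genes, Gpx1 (glutathione peroxidase) at 2.37, Txn1 (thioredoxin) at 1.3 and Sod1 (superoxide dismutase) at 1.16 were higher, and Txnip, a thioredoxin inhibitor, was lower at -2.98. The glycolysis enzyme gene Gapdh was higher at 0.90 (1 of 9), and 1 of 79 ribosomal protein genes, Rps27l, at 1.14. The heat shock genes Hspa1a and Dnajb1 were lower at -2.39 and -1.27 (2 of 10), as was H2-T23 at -1.97 (1 of 7). Runx1 was lower at -1.82 (1 of 9 stem or progenitor genes), as were Fst (follistatin) and Id2 at -2.32 and -1.62 (2 of 6 TGF-beta, BMP and Id genes), while Fn1 (fibronectin) was higher at 2.03 (1 of 4 mesenchymal genes).

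**Figure D4:**
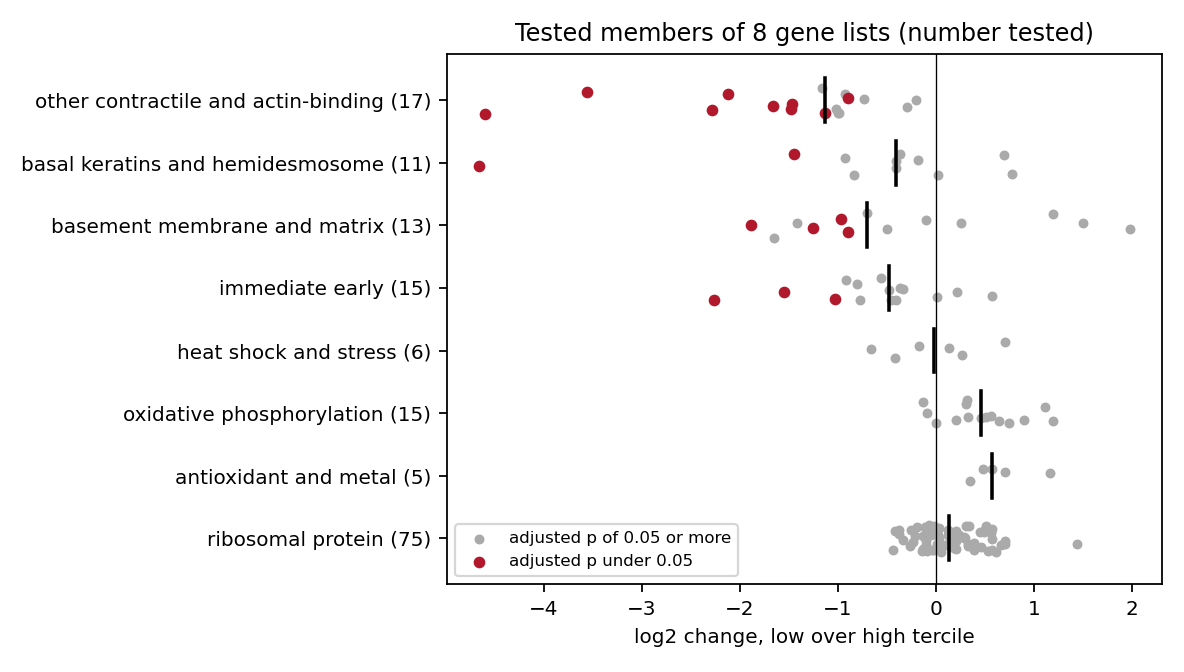
Log2 change, low over high contractile tercile, of each tested member of 8 gene lists, with members past an adjusted p of 0.05 in red, others in grey and a black bar at each list's median. All 17 contractile genes lie left of 0, including the gate genes Acta2 and Myl9, and the 75 ribosomal protein genes centre near 0.13.

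Cell cycle genes were too sparse at 5000 transcripts to test, so they are read from all transcripts. Of 7 G2/M genes tested, 4 were higher and 0 lower. Cenpa (centromeric histone) had 40 against 1 transcripts in library 2 and 28 against 2 in library 4, and Mki67 (the proliferation antigen Ki-67) 37 against 1 and 21 against 4. Each was found in 7 of 16 low cells and 3 of 16 high cells, though the low cells summed to more transcripts in both libraries. In library 2, 1 low cell held 30 of the 40 Cenpa transcripts. The changes of Cenpa and Mki67 were 3.80 ± 0.61 and 2.84 ± 0.67 (log2, SE, n = 2 pairs; edgeR adjusted p = 0.00343 and 0.0221). Ccnb2 (cyclin B2) had 40 transcripts in low cells and 0 in high cells, at least 9.253-fold higher by a floor of 3 transcripts over the high cells. Ccnb2, Cenpa and Mki67 entered the test through the low tercile alone. Their direction is thus tied to the filter, and the count of 4 is a description. At equal depth the 16 G2/M genes summed to 1 to 10 transcripts of 5000 (median 5.5) and 3 to 13 (median 8) in low cells, and 1 to 5 (median 1.5) and 0 to 4 (median 2) in high cells of libraries 2 and 4. S phase genes, with 0 of 3 past the threshold, summed to 10 and 10 per 10000 in low and 3 and 5.5 in high terciles. The middle terciles stood at 12.67 and 5.333, so that of library 2 was the highest. Low cells had 0 to 14 transcripts of 5000 (median 2.5) and 1 to 8 (median 5), and high cells 0 to 3 (median 1) and 1 to 7 (median 1.5).

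Of 14 genes of the EGF receptor, FGF and IGF list tested without thinning, 3 were higher, and the 4 Igfbp genes given above were lower. Etv4 and Etv5, transcription factors downstream of FGF receptors, changed by 3.06 ± 0.54 and 1.56 ± 0.41 without thinning (edgeR adjusted p = 0.00557 and 0.0350), and Nrg1, a ligand of ERBB receptors, by 2.27 ± 0.59 (adjusted p = 0.0340). Of 12 Wnt and Notch genes 2 were higher and 2 lower. Notch1 and its target Hes1 were higher, at 2.43 ± 0.56 and 1.47 ± 0.38, and the ligand Dll1 lower, at -3.04 ± 0.61, with adjusted p of 0.0203, 0.0350 and 0.0109 in edgeR. The Wnt receptor Fzd7 was lower at -1.34 ± 0.34 (adjusted p = 0.0293 in edgeR). Before thinning Hes1 had 65 and 60 transcripts in the low terciles of libraries 2 and 4, with 41 of them in 1 cell. In the matrix list Adamts1 (2.42 ± 0.40), Fbln2 (1.25 ± 0.32) and Vcan (1.15 ± 0.28) were higher past the threshold and 10 of 18 genes lower, among them Mmp2, a gelatinase, at -2.97 ± 0.44. For contractile genes 19 of 26 were lower, counting the gate genes Acta2 and Myl9. Actg2 (smooth muscle gamma-actin) had 4 against 47 transcripts in library 2 and 1 against 28 in library 4. Lmod1 (leiomodin) had 1 against 21 and 4 against 12, and Smtn (smoothelin) 10 against 54 and 7 against 43. Actg2, Lmod1 and Smtn entered the test through the high tercile alone, so their direction is tied to the filter and this count is a description.

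Markers of other cell types were at or near 0 in both terciles, apart from Sox10 in the nerve list and the fibroblast genes given above. Endothelial markers had 5 transcripts in 16 low and 4 in 16 high cells, macrophage markers 11 and 1, lymphocyte markers 11 and 0, adipocyte markers 1 and 3, and red blood cell markers 0 and 0. The pericyte list had 9 and 29 transcripts, of which Mcam gave 6 and 25, while Rgs5, Notch3 and Kcnj8 were at 0 in both. The nerve list had 160 and 100 transcripts, of which Sox10 gave 154 and 83, while S100b, Gfap and Cdh19 were at 0. No basal cell held more transcripts of another type's list than of the basal list. Most genes of the basal list also chose or ranked the cells, so this is a description. The luminal list was not part of that comparison.

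Plate 1 libraries 2 and 4, which took no part in choosing the genes, had 15 wells that passed the gate. Of these, 7 were led by another cell type's marker list and 8 are described here, with no test. The cell of lowest share in each library was well 64 (0.3364 per 10000, 29724 transcripts) and well 51 (1.392, 28744 transcripts). Well 64 had 33 Mest, 45 Csn3 and 45 Ccnd1 transcripts, and well 51 had 6, 7 and 43. Both had 0 Krt14 and 0 Oxtr. The 5 cells with shares of 40.92 to 108.2 and 1955 to 6956 transcripts had 0 Mest and 0 Ccnd1, 2 to 6 Krt14, 4 to 8 Oxtr and 20 to 56 Igfbp5. Well 86 (37.25 per 10000, 54770 transcripts) had 21 Mest, 25 Ccnd1, 10 Krt14 and 7 Oxtr. As summed levels, the 22 higher genes stood at 279.9 and 180.9 per 10000 in the 2 lowest cells and 54.68 to 187.3 in the other 6. The 36 lower genes stood at 127.2 and 164.2 against 247.6 to 492.4. The 2 lowest cells were deeper than 5 of the other 6, and their well numbers were above 24.

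**Figure D5:**
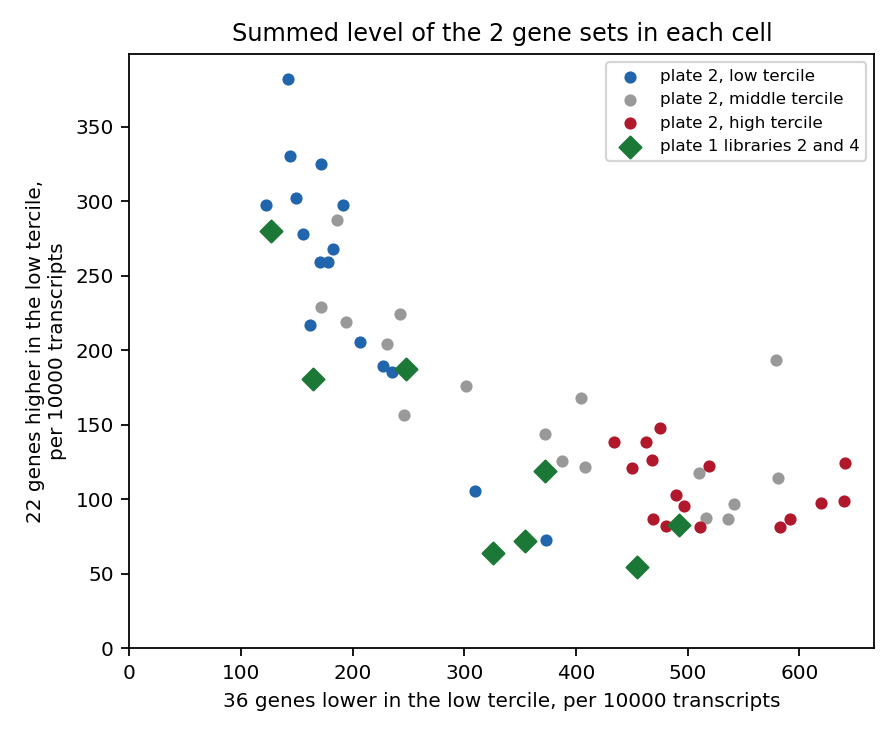
Summed level of the 22 genes higher in the low tercile (y axis) against that of the 36 genes lower in it without Acta2 and Myl9 (x axis), per 10000 transcripts in each basal cell, unthinned, with green diamonds for 8 plate 1 cells. Plate 2 cells chose both sets, so their separation is a description, and the 2 plate 1 cells of lowest contractile share lie furthest left of the 8, at 127.2 and 164.2.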

How the data were processed

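The authors deposited expected counts, estimates of how many mRNA molecules of each gene a well held, made from molecular tags. Of 518737 values above 0, 518732 fell within 1e-06 of a whole number of tags once the correction for a pool of 256 tags was undone, as read from the values. Per the submitters' processing notes, BWA 0.6.2-r126 and the build mm10 are named, with no role stated. Nothing further on the authors' filters is given in the sources used here. This table holds 14883 gene lines and 81 spike-in lines, and the 2 libraries used hold 598625 and 374415 transcripts.

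Counts were rounded and spike-ins left out. Cells were chosen and thinned as described above (seed 11), summed per library and tercile, and tested with edgeR 4.0.16 (TMM, filterByExpr, glmQLFTest, R 4.3.3), checked on simulated counts. The filter also kept genes that were high enough in the sums of a single tercile. Genes nearly absent from the other tercile, such as Mest and Krt14, were thus tested only through the tercile where they were high. For such genes the direction is tied to the filter. The library is a block because both sums of a library share its wells and handling. The 4 sums leave few degrees of freedom, and an exact permutation over 2 pairs could not pass any usual threshold. Standard errors were derived from each gene's F statistic and are approximate. "Inside the well groups" means lower and upper sets by share formed within wells 1 to 24 and within wells 25 to 96, summed and tested in the same way, chosen after well numbers were seen. Doublets were not removed. Intervals and floors cover counting error only.

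Named genes were the 12 largest changes each way among passing genes of the same sign in both libraries, without the selecting and gate genes, ribosomal protein genes and pseudogenes. From each list up to 4 passing and 2 other members were added, and further list members are given by value. Some members that these rules name are not reported here. The cells, lists and rules were chosen with earlier results of these data known. Gene positions are from GENCODE vM21 (GRCm38, the same assembly as mm10) and promoters from RefSeq. Alternatives included DESeq2 1.42.0, other scalings, filters, depths, seeds and splits.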

Additional observations from a re-analysis of the deposited data

How the results depend on the processing

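The 60 calls kept their sign wherever the depth, seed, scaling, filter, test or share was changed in plate 2 and they could be tested, but the number past the threshold moved. Thinning each cell to 1500 transcripts gave 0 calls in edgeR (18 of 181 genes at an unadjusted p under 0.05; DESeq2 was not run at that depth), 3000 gave 34, 10000 gave 215 and no thinning 349. The random draw alone mattered: seed 12 gave 87 and seed 13 gave 111, and 40 genes were called with all 3 seeds. Shares taken from thinned transcripts gave 95 calls, RLE size factors 29, and DESeq2 16 (67 at an unadjusted p under 0.05). Plate 1 libraries 2 and 4 were added at 1500 transcripts a cell, a depth that gave 0 calls for plate 2 alone. Adding them gave 2 calls of 63 genes tested, and 0 of 58 without wells led by another type's list (8 at an unadjusted p under 0.05, edgeR). Lower and upper sets inside wells 1 to 24 and 25 to 96 gave 0 calls, those of wells 1 to 24 alone gave 5, and those of wells 25 to 96 alone 0 of 464 (23 at an unadjusted p under 0.05, edgeR). Among the 5 were Odc1 at 2.19, Calr at 1.43, H2afz at 1.29 and Sparc at -1.26, with 2 cells a set in library 4. In wells 25 to 96 Calr was at 0.01, H2afz at -0.02 and Sparc at -0.30, and Odc1 was not tested. For these shifts in the number of calls the cause was not tested. Fewer genes than the 616 of the main fit were tested at 1500 transcripts, in either well group alone and with plate 1. The split inside both well groups tested more genes, 875.

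Signs turned only in splits by well and with plate 1 added. Of the calls that could be tested, 53 of 54 kept their sign with terciles formed within wells 1 to 48 and 49 to 96, 48 of 55 inside the 2 well groups, 27 of 30 in wells 1 to 24, 35 of 47 in wells 25 to 96 and 7 of 8 with plate 1 added. The named genes among those that turned were as follows. With terciles formed within wells 1 to 48 and 49 to 96, Bzw2 was at -0.06. With sets formed inside the 2 well groups, Ccnd1 was at -0.25, Igfbp5 at 0.20, Col4a2 at 0.06, Il17b at 0.04 and Cyr61 at 0.30. In wells 1 to 24 alone Ccnd1 was at -0.13. In wells 25 to 96 alone H2afz was at -0.02, Igfbp5 at 0.06, Col4a1 at 0.32, Col4a2 at 0.22 and Cyr61 at 0.25. With plate 1 added Egr1 was at 0.26. The cause was not tested.

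Without the replicate block that pairs the 2 sums of a library, 65 genes passed, 58 of them shared with the 60. Leaving out either library leaves 1 low and 1 high sum, which gives values and no test. Those values are the changes per library, and no named call reversed in them.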
